A study of Rattus norvegicus with 10 samples.

Results

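S100 proteins are small calcium-binding proteins with a pair of EF-hand motifs, and they act mostly as dimers. On binding calcium they open a surface that docks onto target proteins. In heart muscle cells S100A1 is the prevailing member and acts on calcium release and reuptake. S100A8 and S100A9 pair up as calprotectin, which neutrophils and monocytes hold in bulk and release as an alarm signal. S100A4, S100A6, S100A10 and S100A11 are known from fibroblasts, vessel cells and macrophages. The 10 genes described here are S100a1, S100a3, S100a4, S100a6, S100a8, S100a9, S100a10, S100a11, S100a13 and S100b. They were taken by name, as the probe sets that the platform annotation assigns to 1 of these symbols alone. Each gene had 1 probe set, so they made up 10 of 31042 probe sets and 10 of 14217 named genes. In a RefSeq gene table of rat assembly GRCr8, 9 of the 10 lie on the chromosome of S100a1, and S100b lies on another.

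Heart RNA came from male rats of the inbred Fischer-344 strain, much used in aging research, and was hybridised to Affymetrix Rat Genome 230 2.0 arrays. There were 5 adult samples at 6 months (replicates 1, 2, 3, 4 and 6) and 5 aged samples at 24 months (replicates 2, 3, 4, 5 and 6), with no treatment other than standard chow. The series set out to compare mitochondrial gene expression between these ages. The sample protocols speak of whole hearts and the series text of ventricles. The labels do not state outright that every array stands for its own animal; the p-values therefore rest on the scatter of the 5 arrays per age, which may be partly technical. In pieces of whole tissue, more cells of a type and more RNA per cell cannot be told apart.

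All values are log2 values of the authors' deposited table, in which each probe set is centred on its median over the 10 arrays. Such values can be compared between arrays for a gene, but the level of one gene cannot be set against that of another. The log base is not recorded and was worked out from the spacing of the stored numbers. The same spacing gives a rough class of brightness before centring. S100a1, S100a4, S100a6, S100a10 and S100a11 fell in the brightest class, S100a3, S100a9, S100a13 and S100b in the middle one, and S100a8 in the dimmest. The array medians lay between -0.0097 and 0.0093. Adult replicate 2 stood apart in adipocyte markers. Aged replicates 3 and 6 stood apart in the mean of the lymphocyte markers, though not in each marker. Results that rest on adult replicate 2 or aged replicate 6 are therefore given with and without them.

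Aged hearts had more transcript of S100a9, S100a4, S100a6 and S100a10, by 1.62-fold to 2.11-fold, and a lower mean of the muscle gene S100a1 that did not pass the test. A gene is said to have risen where its limma adjusted p over all 14217 genes was under 0.05. By this rule 4 of the 10 S100 genes rose, where 6.77% of all genes rose and 11.9% changed in either direction. Counted over probe sets 4 rose too, where 4.42% of all probe sets rose and 8.03% changed. All 4 were past 1.5-fold, as were 1.55% of all genes. Of the 5 members in the brightest class 3 rose, against 10.3% of genes in that class. None of the 10 fell by limma, with 1 lower at an unadjusted p under 0.05, where 5.09% of all genes fell. In the same 4 genes every aged array lay above every adult array, which held for 5.13% of all genes. The reverse held for 0 of the 10 and for 4.78% of all genes. The median change of the 10 genes was 0.32, against -0.01 over all genes. Leaving out adult replicate 2 and aged replicate 6 together still gave 4 S100 genes that rose, where 4.57% of all genes changed in either direction.

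**Figure D1:**
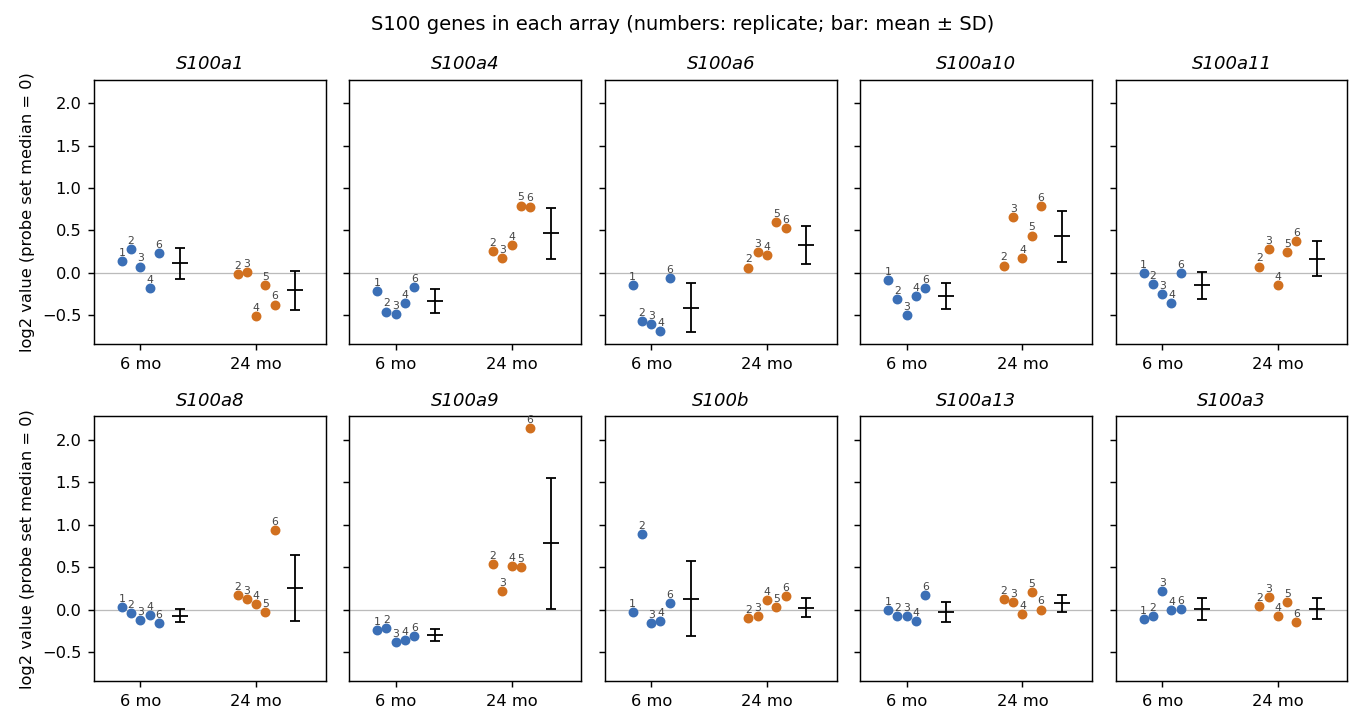
Log2 value of each S100 gene in each array, with the probe set median over all arrays at 0; blue points are 6 months, orange points 24 months, small numbers are replicates and bars show mean ± SD of 5 arrays. Aged points lie above all adult points for S100a4, S100a6, S100a10 and S100a9, and single high arrays are seen in S100a8 and S100a9 (aged replicate 6) and in S100b (adult replicate 2).

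S100a1 encodes the S100 protein typical of heart muscle, where it binds the ryanodine receptor and the calcium pump of the sarcoplasmic reticulum. In adult replicates 1, 2, 3, 4 and 6 its log2 values were 0.14, 0.28, 0.07, -0.17 and 0.23. In aged replicates 2, 3, 4, 5 and 6 they were -0.01, 0.01, -0.51, -0.14 and -0.37. The ages overlapped, because adult replicate 4 lay below 3 of the aged arrays, and the lowest values belonged to aged replicates 4 and 6. The difference was -0.32 ± 0.11 (SE, n = 5 per age, limma adjusted p = 0.0853), a change of -19.7%. Its interval, from -0.56 to -0.08, was not adjusted for the other genes. S100a1 passed without adult replicate 4 (-0.39, adjusted p = 0.0418) and with array weights (-0.37, adjusted p = 0.0281).

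Of 8 genes whose proteins S100A1 binds or acts on in heart muscle, 5 fell and all 8 had lower means, with a median of -0.32, where 5.09% of all genes fell. Ryr2, the ryanodine receptor that releases calcium for contraction, gave -0.55 ± 0.11 SE (adjusted p = 0.00786), with both of its probe sets lower. Atp2a2, the pump that takes calcium back up, gave -0.34 (adjusted p = 0.0251). Its 5 probe sets ran from -0.98 to 0.00. Atp5f1a, the alpha subunit of ATP synthase, gave -0.28 (adjusted p = 0.0281). Heart muscle markers moved beside these genes. Their mean log2 value lay between 0.03 and 0.22 in adult arrays and between -0.15 and 0.07 in aged arrays, 8 of 9 had lower means and 2 fell, and their part in these results was not tested. Muscle marker genes that fell were Actn2 (-0.46) and Myom1 (-0.44), which encode proteins of the Z-disc and the M-band, while the titin gene Ttn, which stands in both lists, gave -0.52 (adjusted p = 0.0597).

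S100a4, known from fibroblasts and macrophages and for its binding of non-muscle myosin, had the smallest p of the 10 genes. Its adult log2 values were -0.21, -0.45, -0.49, -0.35 and -0.17, and its aged values were 0.26, 0.17, 0.33, 0.79 and 0.78. Aged replicates 5 and 6 were highest, and the lowest aged array, replicate 3, still lay above the highest adult array, replicate 6. The rise was 0.80 ± 0.12 SE, or 1.74-fold (adjusted p = 0.00267, n = 5 per age).

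S100a6, or calcyclin, a protein of proliferating and stromal cells, had adult values of -0.14, -0.57, -0.60, -0.68 and -0.06. Its aged values were 0.06, 0.24, 0.21, 0.60 and 0.53. Adult replicates 1 and 6 formed the upper part of the adult group and came close to aged replicate 2 without reaching it. The rise was 0.74 ± 0.14 SE, or 1.67-fold (adjusted p = 0.00592).

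S100a10 encodes p11, which joins annexin A2 at the cell membrane and does not itself depend on calcium. The adult values were -0.09, -0.31, -0.49, -0.27 and -0.18, and the aged values 0.09, 0.66, 0.18, 0.44 and 0.79. Here aged replicates 6 and 3 were highest, whereas in S100a4 and S100a6 aged replicates 5 and 6 were. The rise was 0.70 ± 0.13 SE, or 1.62-fold (adjusted p = 0.00554).

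S100a11, a partner of annexin A1, lay higher on average in aged hearts, but the ages overlapped. Its adult values were 0.0013, -0.13, -0.25, -0.35 and -0.0013, and its aged values 0.07, 0.28, -0.15, 0.25 and 0.38. Aged replicate 4 lay within the adult range. The difference of 0.31 ± 0.10 SE did not pass (adjusted p = 0.0610). Without aged replicate 4 it did (0.39, adjusted p = 0.0165). The reference table lists 5 pseudogenes and 2 further S100a11-like genes, and 1 pseudogene of S100a10, so signal shared with near-identical copies is uncertain for both.

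**Figure D2:**
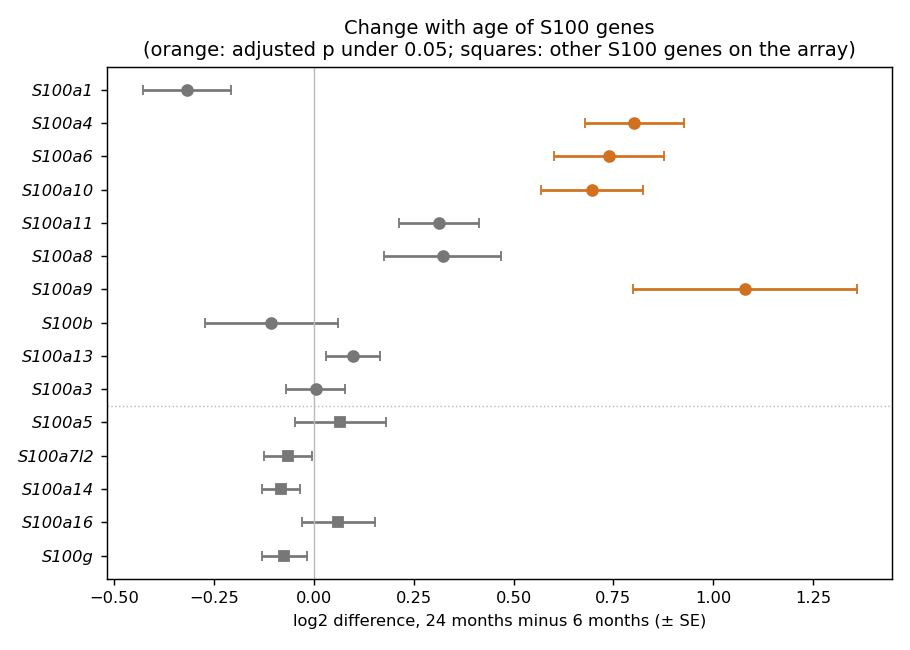
Log2 difference between 24 and 6 months with its SE from limma, for the 10 S100 genes (circles) and 5 further S100 genes of the array (squares); orange marks an adjusted p under 0.05. The orange genes are S100a4 (0.80), S100a6 (0.74), S100a10 (0.70) and S100a9 (1.08), and S100a1 stands lowest at -0.32.

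Calprotectin was described through both of its subunits. S100a9 had adult log2 values of -0.24, -0.21, -0.38, -0.35 and -0.31, a narrow group with an SD of 0.07. Its aged values were 0.54, 0.21, 0.51, 0.50 and 2.13. Aged replicate 6 was far above the other aged arrays, and these in turn were all above the adult arrays. The rise was 1.08 ± 0.28 SE, or 2.11-fold (adjusted p = 0.0271, n = 5 per age), the largest of the 10 genes. Without aged replicate 6 it was 0.74 ± 0.07 SE (adjusted p = 0.000642). S100a9 no longer passed when adult replicate 2 (adjusted p = 0.0553), 3 (0.0652), 4 (0.0542) or 6 (0.0535) was left out, with robust eBayes (0.0525) and without variance moderation (0.105), all of which kept aged replicate 6.

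S100a8 encodes the other subunit. Its adult values were 0.03, -0.04, -0.12, -0.06 and -0.16, and its aged values 0.17, 0.12, 0.07, -0.03 and 0.93. Aged replicate 6 was again the highest array, and aged replicate 5 lay inside the adult range. The difference of 0.32 ± 0.15 SE did not pass (adjusted p = 0.184), and without aged replicate 6 it was 0.15 (adjusted p = 0.141). The probe set was in the dimmest class, in which the spacing points to a lowest value under 4 on the inferred log2 scale before centring.

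The upstream sequences of 3 members are shown because S100a4 and S100a9 had the largest rises, while S100a11 belongs to the same family and did not pass. The promoter table of RefSeq, assembly GRCr8, matched 7 of the 10 members, and S100a1, S100a8 and S100a10 were not matched. Each window is the 250 bases before the annotated gene start, 5′ to 3′ on the gene's strand. They are chr2:178388279-178388528 (plus strand) for S100a4, chr2:178490623-178490872 (minus strand) for S100a9 and chr2:181874882-181875131 (plus strand) for S100a11. Capitals mark matches to 4 motifs searched on both strands, the TATA box TATAAA, the AP-1 site TGANTCA, the GC box GGGCGG and the C/EBP site TTNNGNAA, chosen with the changes known.
S100a4: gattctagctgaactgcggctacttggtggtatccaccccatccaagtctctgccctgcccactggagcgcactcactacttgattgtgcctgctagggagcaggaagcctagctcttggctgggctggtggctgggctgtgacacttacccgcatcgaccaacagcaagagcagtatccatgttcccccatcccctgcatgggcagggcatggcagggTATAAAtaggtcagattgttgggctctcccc
S100a9: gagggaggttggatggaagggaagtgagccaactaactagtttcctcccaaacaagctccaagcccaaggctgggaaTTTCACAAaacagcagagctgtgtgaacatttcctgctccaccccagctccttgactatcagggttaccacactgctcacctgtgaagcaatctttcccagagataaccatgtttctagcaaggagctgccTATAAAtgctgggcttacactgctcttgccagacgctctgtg
S100a11: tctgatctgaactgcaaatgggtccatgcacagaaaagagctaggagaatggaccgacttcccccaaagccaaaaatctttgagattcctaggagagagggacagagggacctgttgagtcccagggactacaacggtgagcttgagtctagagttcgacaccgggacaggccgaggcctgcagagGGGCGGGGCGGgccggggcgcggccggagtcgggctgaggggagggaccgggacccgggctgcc

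S100a4 and S100a9 each held a TATA box on the gene's strand, at -31 to -26 and -42 to -37 from the start, as did 8.38% of all 27457 promoters. They were 2 of the 7 matched members, and S100a6, which rose as well, held a GC box and no TATA box. S100a9 also held a C/EBP match on the opposite strand at -173 to -166, where 36.8% of promoters hold one on either strand. S100a11 held overlapping GC boxes at -64 to -59 and -59 to -54, and 32.4% of promoters hold one on either strand. GC boxes were also present for S100a3 and S100a13, and a C/EBP match for S100a3, and neither gene passed the test. The AP-1 letters, present in 6.36% of promoters, were not in these windows. Such matches describe the letters and do not show that a factor binds.

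Both subunits were highest in aged replicate 6. After removal of each age's mean, S100a8 and S100a9 had r = 0.95 over 10 arrays, and r = 0.10 over 9 arrays without aged replicate 6. Among the stromal genes the same measure ran from 0.51 for S100a4 with S100a10 to 0.81 for S100a4 with S100a6, with 0.79 for S100a10 with S100a11. Without aged replicate 6 those were 0.29, 0.80 and 0.73. Pairs with genes outside this group also reached such values. S100a1 with S100a11 gave 0.54 over 10 arrays and 0.81 without aged replicate 6, and S100a11 with S100a13 gave 0.58 and 0.80. These coefficients are descriptions, and all genes share the same arrays.

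Myeloid cell markers were measured beside them. Of the 13 macrophage and monocyte markers 6 rose, where 6.77% of all genes rose. They included the scavenger receptor gene Cd163 (0.84) and the complement gene C1qa (0.86). All 13 markers had higher means in aged hearts, with a median of 0.55. Their mean log2 value lay between -0.38 and 0.03 in adult arrays and reached 0.62 and 0.89 in aged replicates 5 and 6, the arrays highest in S100a4. In aged replicates 2, 3 and 4 it was 0.0031, 0.0280 and 0.38, beside 0.0276 in adult replicate 1. Of 11 neutrophil markers 6 were measured, none passed by limma (0 at an unadjusted p under 0.05), and in aged replicate 6 their mean was -0.03, inside the adult range of -0.04 to 0.14. In 3 of the 6, every probe set was in the dimmest class, and the centred table has no zero level. Fibroblast markers had higher means in 10 of 10 genes, 4 rose, including the matrix genes Dpt (0.70) and Lum (0.68), and their mean value lay between -0.235 and 0.04 in adult and between -0.0022 and 0.37 in aged arrays. The part of macrophage and fibroblast content in the S100 results was not tested.

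**Figure D3:**
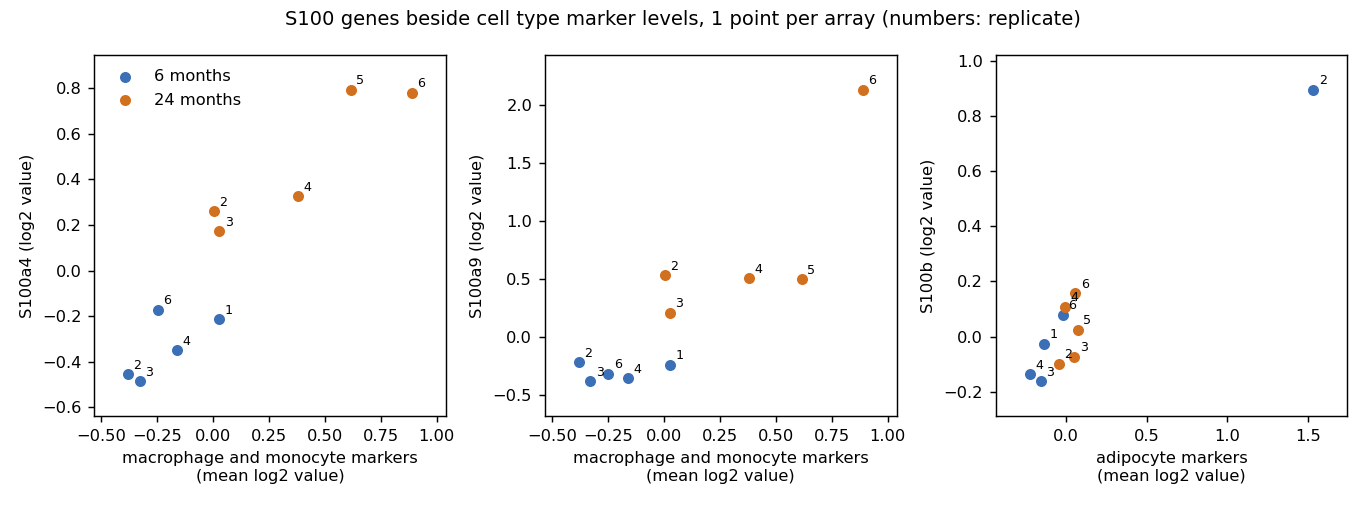
S100a4 and S100a9 against the mean log2 value of macrophage and monocyte markers, and S100b against that of adipocyte markers, with 1 point per array, blue for 6 months and orange for 24 months, and replicate numbers beside the points. Aged replicates 5 and 6 are high in macrophage markers and S100a4, aged replicate 6 alone is high in S100a9 (2.13), and adult replicate 2 alone is high in adipocyte markers (1.53) and S100b (0.89).

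S100b is best known from glia and Schwann cells and is also made by adipocytes. Its adult values were -0.03, 0.89, -0.16, -0.14 and 0.08, and its aged values -0.10, -0.07, 0.11, 0.03 and 0.16. Adult replicate 2 was the only array far from the others. The difference was -0.11 ± 0.17 SE (adjusted p = 0.741, interval from -0.47 to 0.26), and without adult replicate 2 it was 0.085 ± 0.07 SE (adjusted p = 0.540). Adult replicate 2 also had the highest mean of the 6 measured adipocyte markers, at 1.53, where the other adult arrays lay between -0.22 and -0.02 and the aged arrays between -0.05 and 0.07. Adipoq, the adipocyte hormone adiponectin, was at 2.99 in that array. Schwann cell and glia markers were at 0.09 there, below the 0.11 of aged replicate 3, and none of the 5 measured passed by limma (0 at an unadjusted p under 0.05). The part of adipose tissue in the S100b value was not tested.

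S100a13, which takes part in the release of growth factors that lack a signal sequence, and S100a3, known mainly from hair, showed the smallest differences. S100a13 ranged from -0.14 to 0.17 in adult arrays and from -0.06 to 0.21 in aged arrays, a difference of 0.10 ± 0.07 SE (adjusted p = 0.402). For S100a3 the adult range was -0.11 to 0.22 and the aged range -0.15 to 0.15, with a difference of 0.00 ± 0.07 SE (adjusted p = 0.976). The 2 intervals, from -0.05 to 0.24 and from -0.15 to 0.16, leave out changes as large as those of S100a4. Of 9 further S100 genes sought, 5 were on the array (S100a5, S100a7l2, S100a14, S100a16 and S100g) and none passed by limma (0 at an unadjusted p under 0.05). The smallest p among these was that of S100a14, with -0.08 ± 0.05 SE (adjusted p = 0.310), and the median of the 5 was -0.065.

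S100a1 was then set against the other 9 genes within each array, as the log2 value of the other gene minus that of S100a1. For S100a4 this relative value ran from -0.74 to -0.18 in adult arrays and from 0.16 to 1.16 in aged arrays, a shift of 1.12, or 2.17-fold. S100a9 shifted by 1.40 (2.63-fold), from adult values between -0.54 and -0.18 to aged values between 0.20 and 2.51. The shifts of S100a6 and S100a10 were 1.06 and 1.01, and those of S100a8, S100a11 and S100a13 were 0.64, 0.63 and 0.42. In 6 of the 9 genes (S100a4, S100a6, S100a9, S100a10, S100a11 and S100a13) every aged array lay above every adult array, where 8.41% of all genes did so relative to S100a1. S100a3 and S100b, at 0.32 and 0.21, overlapped between the ages. Without aged replicate 6 the shift of S100a9 was 1.02 and that of S100a8 0.43.

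The tests of these shifts depended on how the spread was estimated. By limma 7 of the 9 passed, but so did 28.7% of all genes in that direction, since all of them carry the lower S100a1 of the aged arrays. That fit had an infinite prior, so its p-values use 1 common spread for all genes. With each gene's own spread, which was added after this was seen, 0 of 9 passed and the lowest adjusted p was 0.0582. By that measure 0.134% of all genes passed. Without aged replicate 6 limma called 5 of the 9 and 11.3% of all genes, with S100a8 (adjusted p = 0.0659) and S100a13 (adjusted p = 0.0925) no longer called. Without adult replicate 2 and aged replicate 6 it called 4 of the 9 and 4.97% of all genes.

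**Figure D4:**
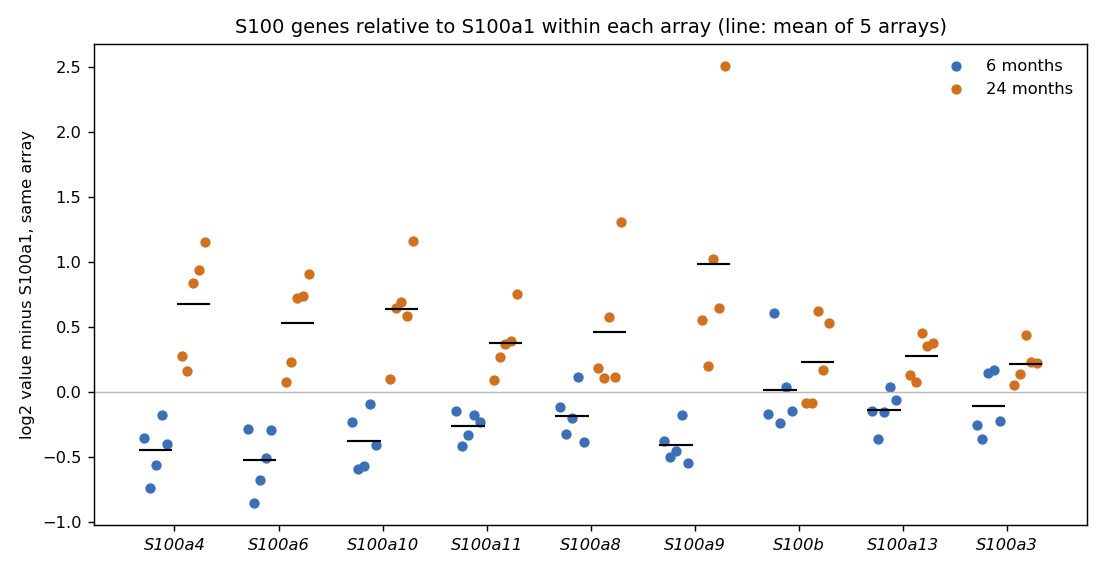
Log2 value of each S100 gene minus that of S100a1 in the same array, blue for 6 months and orange for 24 months, with a line at the mean of 5 arrays. Adult and aged points do not overlap for S100a4, S100a6, S100a10, S100a11, S100a9 and S100a13; those of S100a8, S100b and S100a3 do.

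Of 22 receptors and binding partners of S100 proteins listed, 21 were measured, 4 rose and 17 did not pass, with a median of 0.06, where 6.77% of all genes rose. The genes that rose included the annexins Anxa1 (0.60 ± 0.11 SE, adjusted p = 0.00524), which binds S100A11, and Anxa5 (0.37 ± 0.07 SE, adjusted p = 0.00499). The growth factor receptor gene Fgfr1 rose too (0.20, adjusted p = 0.0288), but its probe sets differed. The one of the middle class gave 0.33 (adjusted p = 0.0145 over probe sets) and the one of the brightest class 0.07 (adjusted p = 0.672). The last to pass was Myh9 (0.29, adjusted p = 0.0492), the non-muscle myosin bound by S100A4. Anxa2, the partner of S100A10, did not pass (0.25, adjusted p = 0.0709). Its probe sets disagreed. The one of the brightest class gave 0.61 (adjusted p = 0.0202 over probe sets) and the other -0.12 (adjusted p = 0.199). The receptor gene Ager, which encodes RAGE, gave -0.02 ± 0.08 SE (adjusted p = 0.902), and Tlr4, the Toll-like receptor that senses calprotectin, 0.29 ± 0.11 SE (adjusted p = 0.110).

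Among 18 measured genes of Toll-like receptor and RAGE signalling, 3 rose, 1 fell and 14 did not pass, with a median of 0.05. Over all genes 6.77% rose and 5.09% fell. Ly96, which encodes the co-receptor MD-2 of TLR4, rose by 0.61 ± 0.11 SE (adjusted p = 0.00509). Myd88, the adaptor of Toll-like receptors, rose by 0.40 (adjusted p = 0.0191) and Diaph1, a formin that binds the tail of RAGE, by 0.29 (adjusted p = 0.0178). The probe sets of Diaph1 gave 0.47 (adjusted p = 0.00955 over probe sets) and 0.11 (adjusted p = 0.391). Tirap, another adaptor, was the gene that fell (-0.20, adjusted p = 0.0338). Means were higher in aged hearts for 16 of the 18. The largest difference in the list was that of the chemokine gene Ccl2, at 0.76 ± 0.25 SE, and it did not pass (adjusted p = 0.0685). The cytokine genes Il1b, Il6 and Tnf gave 0.04, 0.04 and 0.06 (adjusted p from 0.559 to 0.762).

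Other genes were ranked by how closely they followed S100a1, S100a4, S100a8, S100a9 and S100b after removal of each age's mean, over 10 arrays. Closest to S100a4 were Gask1b (r = 0.96), Unc93b1 (0.95), Szrd1 (0.95), Islr (0.95) and the macrophage gene Aif1 (0.94). Without the 2 arrays farthest out in S100a4, aged replicates 5 and 6, these were 0.91, 0.87, 0.93, 0.75 and 0.90. Closest to S100a1 were Letm2 (0.97), C7h8orf33 (0.97), Cspg5 (0.93), LOC102555030 (0.93) and Bspry (0.93), of which none differed between the ages by limma (adjusted p from 0.310 to 0.832).

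S100b was followed by Nnat (0.95), Pck1 (0.95), Cidec (0.94), Rfx4 (0.94) and Adipoq (0.94), and without adult replicate 2 these were 0.40, 0.28, 0.41, 0.77 and -0.01. S100a8 was followed by Mkrn1 (0.95), Cd96 (0.95), Bpgm (0.94), 1700013D24Rik (0.94) and Cd69 (0.94). S100a9 was followed by Glul (0.96), 1700013D24Rik (0.95), Hemgn (0.93), Pik3ap1 (0.93) and Zfp384 (0.92). Aged replicate 6 was the highest array for each of these genes, and Bpgm and Hemgn, which are known from red cell precursors, stood at 0.69 and 0.76 there. Without that array the coefficients ran from 0.44 to 0.70 for S100a8 and from -0.37 to 0.77 for S100a9.

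The changes of S100a4, S100a6 and S100a10 kept their call in each of the 10 fits that left out 1 array. The values ran from 0.72 to 0.88 for S100a4, from 0.67 to 0.83 for S100a6 and from 0.61 to 0.78 for S100a10, with adjusted p of at most 0.0199. S100a9 ran from 0.74 to 1.22. S100a8 stayed short of the threshold in all 10, from 0.15 to 0.39.

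**Figure D5:**
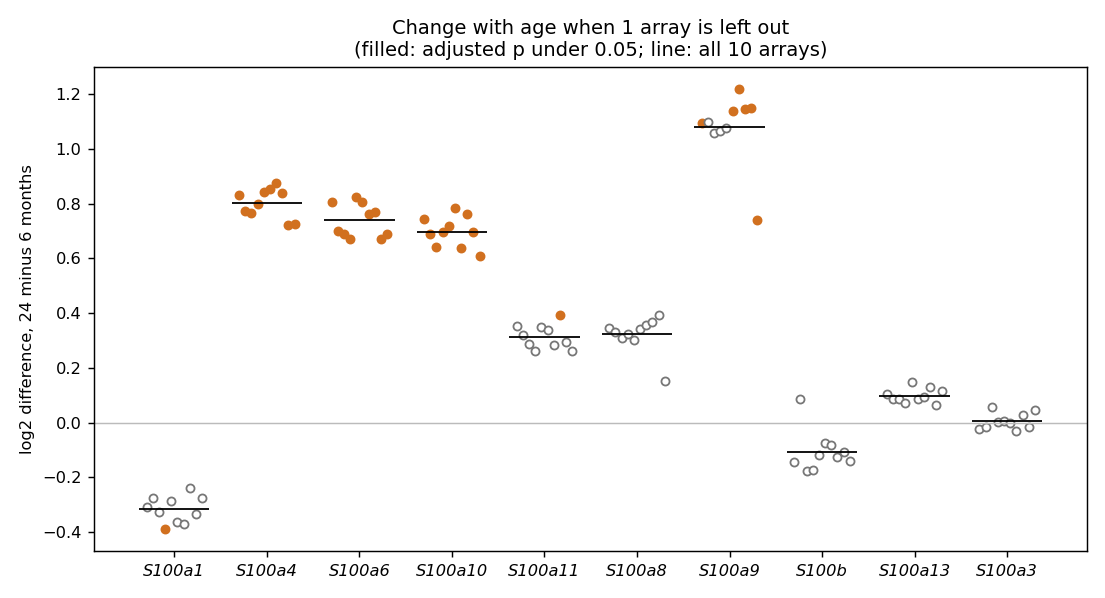
Log2 difference between 24 and 6 months when each of the 10 arrays is left out in turn, for each S100 gene; filled points have an adjusted p under 0.05, open points do not, and the line is the value on all arrays. S100a4, S100a6 and S100a10 stay filled throughout, and S100a9 has both filled and open points.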

How the data were processed

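The data were 10 arrays of rat heart RNA, 5 per age. The values are log2 values as the authors deposited them, 1 per probe set and array; the sources used here do not give the software, background correction or normalization, and the log base was inferred. Each probe set has a median of 0 over the arrays (within 4.78e-07). The number of arrays limits the precision, and detection calls were not used here. Probe sets were named by a platform annotation, with symbols updated by identifier (20758 of 20826 single-gene probe sets matched), and probe sets of a gene were averaged.

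Ages were compared with limma 3.58.1 (lmFit, eBayes) in R 4.3.3 with no covariate, over 31042 probe sets and 14217 genes, with Benjamini-Hochberg adjustment over each whole table. Exact permutation tests over 252 arrangements left 0 genes past adjustment, with 3502 at p under 0.05. The smallest p that this test can give is 0.00794. S100a4, S100a6, S100a9 and S100a10 were all at that p (adjusted p = 0.0801 by the permutation test). That floor limits what can pass over 14217 genes, so the 0 does not decide on single genes. Plots and tables used Python 3.11.15, pandas 2.3.3 and matplotlib 3.10.9. Members and gene lists were chosen with earlier results of these data known. Named were all members, up to 3 genes of smallest p per list, plus Ager, Tlr4, Anxa2 and Ryr2, and the 5 genes most alike to 5 members. Myh9, Tirap, Ccl2, Il1b, Il6, Tnf, S100a5, S100a16, Cd3e and Cd3g fall outside this rule and were named after their values were seen.

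Alternatives were quantile normalization, median centring, array weights, the most variable probe set, no dim probe sets, robust eBayes and arrays left out. A replicate block over the numbers found in both ages was another. Added after seeing the data were a fit without adult replicate 2 and aged replicate 6 and one without variance moderation. An NF-kB motif tried after the promoter sequences had been read was left out.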

Additional observations from a re-analysis of the deposited data

Results flagged for a closer look

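In 3 of 20 combinations of gene and age, 1 array lay so far from the other 4 that its gap, divided by the range of the group, exceeded 0.71, Dixon's critical value for 5. Chance gives about 1 in 20. In S100a9 aged replicate 6 stood at 2.13, with a gap of 0.831 of the range. In S100a8 the same array stood at 0.93, with a gap of 0.798. In S100b adult replicate 2 stood at 0.89, with a gap of 0.771.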

How the results depend on the processing

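S100a4, S100a6 and S100a10 kept their direction and call over genes in all 20 alternatives, and S100a9 did in 14 and kept its direction in all; over probe sets its call was also lost without adult replicate 1 (adjusted p = 0.0501). Over probe sets without variance moderation 1 of 10 members passed, where 667 probe sets (2.15%) passed in all. S100a3 changed sign with array weights (-0.0214 over genes, -0.0244 over probe sets), with the replicate block (-0.0437) and with single arrays left out (from -0.0292 to 0.0585), and never passed. S100b changed sign without adult replicate 2 (from -0.18 to 0.085 over single arrays left out) and without adult replicate 2 and aged replicate 6 (0.0518). Relative to S100a1, 4 of 9 members (4.97% of all genes) passed without these 2 arrays and 0 (0.134% of all genes) without variance moderation. Same-numbered arrays had correlations of deviations between 0.035 and 0.145, and arrays of unlike number between -0.18 and 0.241. What the shared numbers stand for was not tested. The replicate block used only the numbers found in both ages, so adult replicate 1 and aged replicate 5 were left out of it. Its counts therefore differ from the main fit in arrays as well as in the block. With the replicate block 5 of 10 members passed over genes (7.52% of all genes) and 5 over probe sets (5.28% of all probe sets). S100a11 was among them (0.33, adjusted p = 0.0384 over genes). Relative to S100a1, 7 of 9 passed with that block, where 42.7% of all genes passed. All genes called numbered 1686, against 1047 without adult replicate 2, 988 without adult replicate 3, 1003 without aged replicate 5, 1089 without aged replicate 6, 1012 without aged replicates 3 and 6, 650 without adult replicate 2 and aged replicate 6, 857 without variance moderation and 1069 with the replicate block. Other alternatives called more genes, among them array weights (2239) and quantile normalization (1815). So did the fit without aged replicate 2 (1994) and that with the most variable probe set (1906). Probe sets called numbered 2492, against 667 to 3397 over the alternatives, and genes relative to S100a1 4112, against 19 to 12459. S100a8 has no value where the dimmest class was left out. The cause of these shifts was not tested.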

Other observations

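Other calcium sensors of the EF-hand kind were measured beside the S100 genes. Of 18 listed, 16 were on the array, 6 rose, 1 fell and 9 did not pass, with a median change of 0.155 by limma, where 6.77% of all genes rose and 5.09% fell. Efhd2, a calcium-binding protein of immune cells, rose by 0.88 ± 0.18 SE (adjusted p = 0.0103), with its highest values in aged replicates 6 (1.17) and 3 (0.86). Calm2, 1 of the genes for calmodulin, rose by 0.53 ± 0.09 SE (adjusted p = 0.00476). Efhd1, a calcium sensor of mitochondria, fell by 0.60 ± 0.06 SE (adjusted p = 0.000858), and every aged array lay below every adult array.

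Markers of other cell types that could sit in the tissue were also counted. Of 7 endothelial markers 2 rose, Vwf (0.94) and Tek (0.35), where 6.77% of all genes rose. The other 5 did not pass, and 2 of the 7 had lower means. Of 8 smooth muscle and pericyte markers none passed by limma (1 at an unadjusted p under 0.05). Of 8 lymphocyte markers 1 rose, the granzyme gene Gzma (1.98), and 7 did not pass. The lymphocyte marker mean reached 0.90 in aged replicate 3 and 0.59 in aged replicate 6. S100a10 was highest in the same 2 arrays, at 0.66 in aged replicate 3 and 0.79 in aged replicate 6. The part of lymphocyte content in the S100a10 values was not tested. Of the 6 adipocyte markers none passed by limma (1 at an unadjusted p under 0.05).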
